A study of Mus musculus with 84 samples.

Results

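The comparison described here is that of the aorta, taken with the fat around it, between ob/ob and wild-type (WT) mice on a normal diet (ND). Its members are the 3 aorta libraries of ob/ob mice on ND and the 3 of WT mice on ND, chosen by genotype, diet and tissue in the labels, 6 of the 84 libraries of the series. In ob/ob mice a nonsense mutation stops Lep, the gene of leptin, from making a working hormone, in the whole body and from birth, and the mice become obese. The series holds 7 tissues of mice of both genotypes on ND or on a high-fat diet (HFD), and 20 weeks is stated in the labels, where it is open whether age or length of diet is meant. Within a tissue each library is a separately numbered mouse, and no agent other than the diet is named for any group used here. The 6 HFD aorta libraries (3 ob/ob, 3 WT) share the estimate of the spread and serve for comparison. The 6 epididymal fat libraries of the same ND mice also serve for comparison. Fat and aorta libraries of the same group and number were taken to come from the same mouse, which was not checked. The Lep mutation is not visible in gene counts, so the genotype was taken from the labels unchecked, and the labels' extraction protocol speaks of hearts for every tissue.

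The mouse thoracic aorta lies in perivascular fat that resembles brown fat: its adipocytes hold many mitochondria, store fat in small droplets and release heat through UCP1, which lets protons leak across the inner mitochondrial membrane. Leptin is the hormone by which adipocytes report the size of the fat stores to the brain, and mice without it eat more, burn less fat for heat and have adipocytes that fill with lipid. The vessel wall itself is made of contractile smooth muscle, endothelium and an adventitia of fibroblasts, and fat that grows in obesity draws in macrophages that take up lipid.

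Total counts per library were 12771105 to 13843248 (WT) and 13187523 to 15207937 (ob/ob) on ND. A level is given in CPM, the count relative to the TMM-scaled library size, for mice 1, 2 and 3 in that order. Fold changes are log2 values of ob/ob minus WT with ± standard error of the fit (n = 3 mice per group), tested with edgeR's quasi-likelihood test. Genes are said to rise or fall only past a Benjamini-Hochberg adjusted p of 0.05 over all genes tested.

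The libraries were dominated by thermogenic fat, not by vessel wall. Per kilobase of transcript, the level of Ucp1 was 7151, 4837 and 6393 CPM in WT mice and 3593, 2194 and 2851 CPM in ob/ob mice. On the same scale Acta2, the main actin of smooth muscle, was at 437, 146 and 251 CPM in WT mice and 144, 231 and 131 CPM in ob/ob mice. Adipoq, the adiponectin of mature adipocytes, was at 901 to 1381 CPM per kilobase over the 6 libraries, so all of them were mostly fat by these markers. In tissue of this kind a smaller number of cells of a type and less RNA per cell cannot be told apart.

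WT mouse 2 stood apart from the other WT mice in its makeup. Its summed level of 17 macrophage markers was 2668 CPM, against 640 and 962 CPM in WT mice 1 and 3. The 13 fibroblast markers summed to 3930 CPM against 1714 and 1769 CPM, the 8 mesothelium markers to 1191 against 302 and 564 CPM, and the 9 cardiac muscle markers to 905 against 254 and 334 CPM. Its 20 brown adipocyte markers summed to 15593 CPM, below the 20799 and 20746 CPM of the other WT mice. The library was kept, and counts that move by more than 1.5 times without it are given beside the result.

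**Figure D1:**
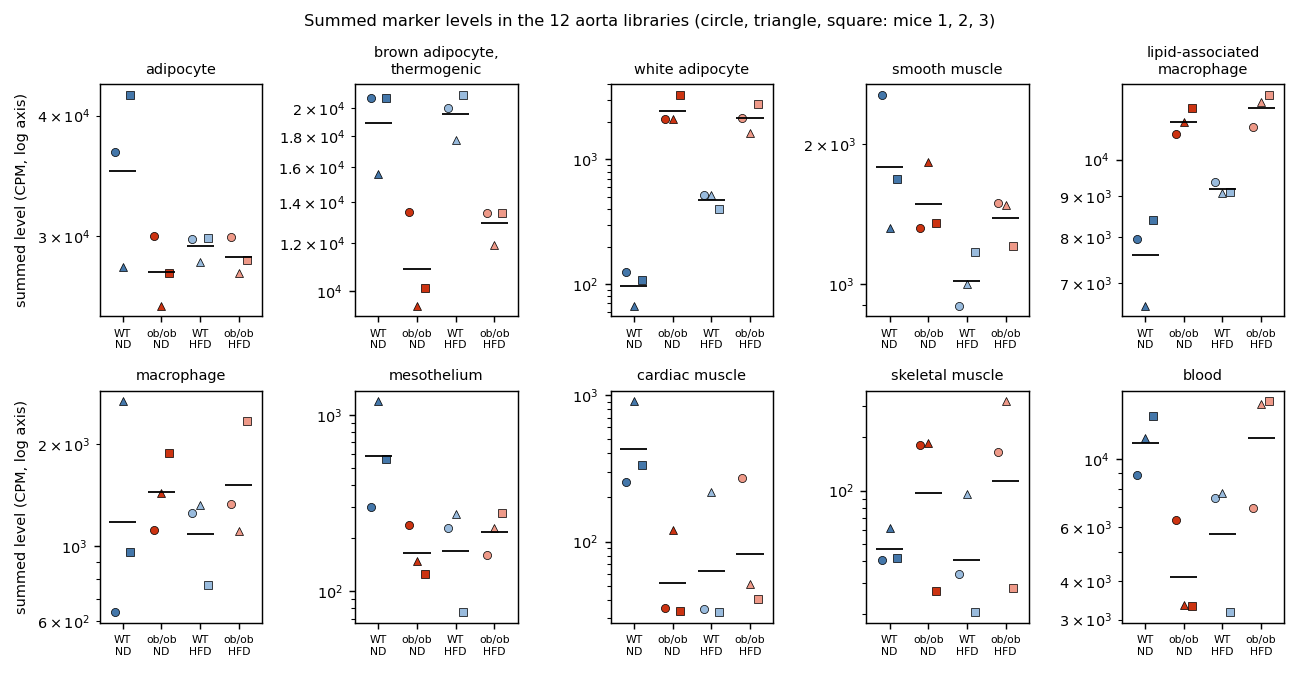
Summed level of each marker list (vertical axis, CPM on a log scale) in the 12 aorta libraries by genotype and diet; symbols are mice and black bars geometric means of 3. White adipocyte markers are 67 to 125 CPM (WT) and 2102 to 3294 CPM (ob/ob) on ND. The sums of brown adipocyte markers do not overlap on ND, while 7 of the 20 tested members separate the groups singly. The triangle of WT mouse 2 on ND stands above its group for macrophage, mesothelium and cardiac muscle.

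Of 14761 genes tested, 4685 (31.7%) differed between ob/ob and WT mice on ND. They were split evenly: 2340 genes (15.9%) were higher and 2345 (15.9%) lower in ob/ob mice. At least a 2-fold difference was seen for 655 higher and 878 lower genes, 10.4% of those tested. The median log2 fold change over all tested genes was -0.03. In 6317 of the tested genes (42.8%), passed or not, the 3 ob/ob and 3 WT libraries did not overlap. Leaving out WT mouse 3 left 3091 genes and leaving out ob/ob mouse 3 left 2982, and no call of the full comparison turned its direction in any alternative tried. Any count of list members below is read against these shares. The genes named for the highest and lowest fold changes had to separate the groups fully to be chosen. List members were named for their smallest p, and other genes after their values were seen. Full separation in a gene named below is therefore partly a result of the choice and not further evidence of a difference.

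**Figure D2:**
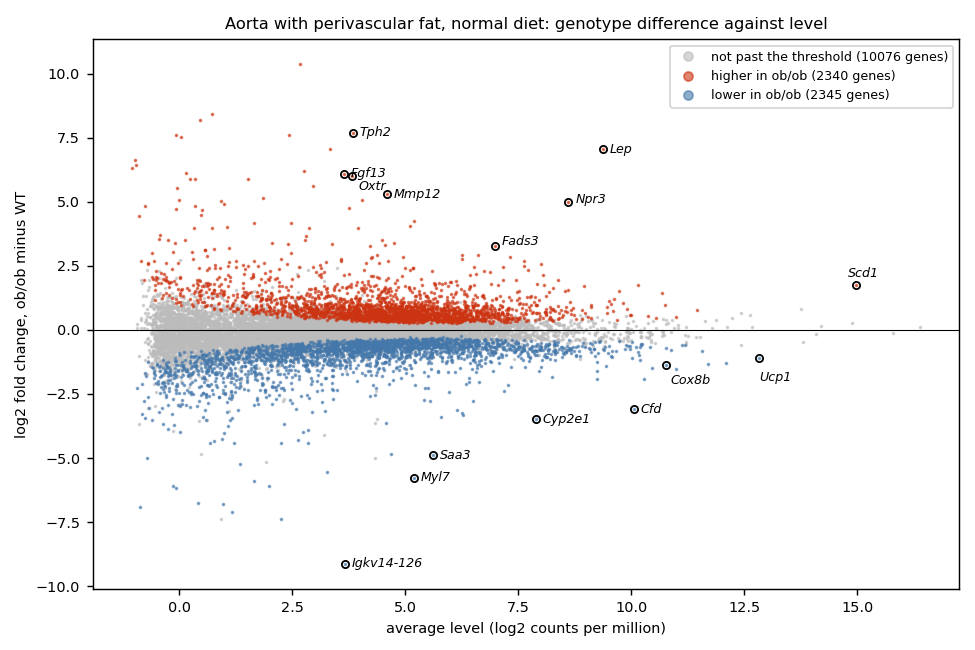
Log2 fold change of each of the 14761 tested genes (vertical axis, ob/ob minus WT, ND) against its average level (horizontal axis, log2 CPM). Red points are the 2340 higher and blue points the 2345 lower genes; Lep, Npr3 and Scd1 lie to the upper right and Cfd and Cyp2e1 to the lower right.

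Genes of white fat were higher in ob/ob mice, and leptin led them. Of the 11 white adipocyte markers, 8 were tested, 7 rose and none fell, with a median log2 fold change of 3.37; Agt, angiotensinogen, was at 0.358 to 1.84 CPM over the 6 libraries and did not pass. The list is a pattern already seen in these data and is not independent evidence of its direction.

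Lep (ENSMUSG00000059201, GRCm38 chromosome 6, 29060220 to 29073877, plus strand) was at 10.9, 10.3 and 9.52 CPM in WT mice and at 1144, 1140 and 1845 CPM in ob/ob mice. The WT mice lay within a narrow band and all ob/ob mice far above it. The fitted difference was 134-fold (7.07 ± 0.37, adjusted p = 3.3e-07). Since the ob/ob transcript holds the stop codon, this is transcript without working hormone. Lepr, the leptin receptor, was low throughout, at 1.41, 1.46 and 1.57 CPM in WT mice and 0.945, 0.958 and 1.22 CPM in ob/ob mice, and its difference of -0.50 ± 0.34 did not pass (adjusted p = 0.28). Of the 7 genes of leptin signalling, Lep alone rose (3 genes without WT mouse 2) and Cish, a STAT5-induced inhibitor of cytokine receptors, fell (-1.06 ± 0.26, adjusted p = 0.01), while Stat3 (0.14 ± 0.16, adjusted p = 0.51) did not pass.

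The sequence just before the start of Lep is shown because Lep led this list. It is RefSeq sequence of GRCm38.p6 at chr6:29060021-29060220, plus strand, printed 5′ to 3′. The capitals mark TTGCGCAA, a palindromic form of the motif of C/EBP factors, which act in adipocyte differentiation. Both strands were searched, and 54 of 32851 promoter windows of 250 bases, 0.164%, hold these letters. The match describes the letters and is not evidence of binding.

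Lep promoter: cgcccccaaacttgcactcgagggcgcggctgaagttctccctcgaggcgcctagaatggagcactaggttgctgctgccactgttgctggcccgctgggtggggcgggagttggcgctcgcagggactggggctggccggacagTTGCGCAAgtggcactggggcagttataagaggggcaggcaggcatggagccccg

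Receptors and secreted proteins of white fat followed. Npr3, the receptor that clears natriuretic peptides from adipocytes (ENSMUSG00000022206, GRCm38 chromosome 15, 11839896 to 11905674, minus strand), was at 27.9, 17.5 and 22.2 CPM in WT mice and 591, 613 and 932 CPM in ob/ob mice. Its groups lay far apart (4.98 ± 0.26, adjusted p = 3.3e-07). Sfrp5, a secreted WNT inhibitor made by adipocytes, was at 0.223, 1.67 and 1.15 CPM against 28.4, 21.6 and 34 CPM (4.77 ± 0.39, adjusted p = 7.9e-06). Mest, an imprinted gene that rises with fat expansion, was at 2.9, 5.01 and 3.01 CPM in WT and 68.9, 46.6 and 92.2 CPM in ob/ob mice (4.24 ± 0.33, adjusted p = 6.2e-06). Nnat, another imprinted gene of white fat, rose from 71.1, 25.1 and 56.7 CPM to 252, 252 and 360 CPM (2.50 ± 0.29, adjusted p = 0.00011). In each of these genes every ob/ob mouse was above every WT mouse. Hoxc8, a patterning gene of the lower trunk that is used to tell white from brown fat, also rose (9.89, 5.63 and 13 against 30.3, 24.3 and 27.5 CPM, 1.53 ± 0.26, adjusted p = 0.0013).

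Several genes that were nearly silent in the WT aorta samples were clearly counted in ob/ob mice. Slc5a7, the choline transporter of cholinergic nerve endings, had 0 counts in all WT mice and 8.79, 9.66 and 18 CPM in ob/ob mice, at least 177-fold higher against a floor of 3 counts over the WT group. Tph2, the serotonin-making enzyme of neurons, was at 0.149, 0.209 and 0 CPM in WT mice and 30.6, 25.5 and 24.3 CPM in ob/ob mice (7.70 ± 0.49, adjusted p = 9.2e-07). Nerve and glia markers did not move with them: of 9 tested, none passed (1 rose without WT mouse 2), and they summed to 127 to 190 CPM in WT and 163 to 175 CPM in ob/ob mice. Oxtr, the oxytocin receptor, was at 0.372, 0.487 and 0.573 CPM against 26.3, 23.8 and 44.7 CPM (6.02 ± 0.59, adjusted p = 3.1e-05). Fgf13, a member of the FGF family that stays in the cell and binds sodium channels, was at 0.669, 0.348 and 0.143 CPM against 22.9, 27.5 and 30.7 CPM (6.11 ± 0.33, adjusted p = 3.8e-07). Crtac1, a secreted matrix protein first found in cartilage, was at 0.149, 0.139 and 0.143 CPM against 11.1, 7.34 and 15.4 CPM (6.21 ± 0.47, adjusted p = 4.9e-06). Prr32 behaved alike, at 0.765 to 1.04 CPM against 22.4 to 38.2 CPM (5.06 ± 0.30, adjusted p = 6.2e-07). Rspo4, a secreted WNT enhancer, had a single count in the WT group and was at 1.89, 1.28 and 0.466 CPM in ob/ob mice. For Ptchd4 and Klf14, both at 0 counts in the WT mice, the ob/ob levels of 2.25 to 4.72 CPM and 0.581 to 1.04 CPM were at least 45.9-fold and at least 10.9-fold higher against the same floor.

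Thermogenic genes did not move as a block. Of 22 brown adipocyte genes, 20 were tested, 5 fell and 2 rose, with a median of -0.29, which was -0.45 without WT mouse 2 and -0.44 without ob/ob mouse 1. Without WT mouse 2, 9 fell, and without ob/ob mouse 3, 3 fell. Ucp1 (ENSMUSG00000031710, GRCm38 chromosome 8, 83290352 to 83298452, plus strand) was at 11700, 7913 and 10460 CPM in WT mice and 5878, 3589 and 4665 CPM in ob/ob mice. The groups did not overlap, and the level fell (-1.09 ± 0.23, adjusted p = 0.0046). Cox8b and Cox7a1, muscle-type and brown-fat-type subunits of cytochrome oxidase, fell with it. Cox8b went from 1782, 2320 and 3026 CPM to 1273, 756 and 720 CPM (-1.37 ± 0.25, adjusted p = 0.0019) and Cox7a1 from 730, 806 and 1141 CPM to 562, 382 and 375 CPM (-1.02 ± 0.20, adjusted p = 0.0027). Cidea, a lipid droplet protein of brown fat, also fell (-0.72 ± 0.19, adjusted p = 0.014), a call lost without WT mouse 3, without ob/ob mouse 2 or 3 and in the fit of the 6 ND libraries alone.

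Dio2 and Ppargc1a, which regulate heat production, went the other way. Dio2, which activates thyroid hormone within the cell, was at 220, 166 and 251 CPM in WT mice and 685, 618 and 587 CPM in ob/ob mice (1.57 ± 0.20, adjusted p = 0.0002). Ppargc1a, the coactivator of mitochondrial genes, was at 165, 93.6 and 130 CPM against 379, 268 and 222 CPM (1.16 ± 0.25, adjusted p = 0.0048). Both were higher in every ob/ob mouse than in any WT mouse. Prdm16, a factor that keeps brown adipocytes in their fate, was at 21.2, 12.4 and 23.5 CPM against 10.7, 16.6 and 11.3 CPM and did not pass (-0.57 ± 0.24, adjusted p = 0.084). Irf4, a transcription factor of adipocytes but also of lymphocytes and macrophages, fell from 19.8, 18.4 and 37.8 CPM to 2.69, 1.92 and 3.85 CPM (-3.15 ± 0.30, adjusted p = 2.2e-05).

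Respiratory chain subunits were lower together. Of 67 genes of oxidative phosphorylation, 66 were tested, 46 fell and none rose, with a median of -0.66, beside 15.9% of all genes that fell. The count was 25 without WT mouse 3 and 30 without ob/ob mouse 3. Complex I subunits Ndufa1 (438, 434 and 604 against 308, 223 and 185 CPM, -1.05, adjusted p = 0.0024) and Ndufs6 (295, 292 and 349 against 205, 180 and 148 CPM, -0.81 ± 0.14, adjusted p = 0.0016) fell. In complex III, Uqcr10 went from 951, 1022 and 1371 CPM to 691, 501 and 407 CPM (-1.06 ± 0.20, adjusted p = 0.0025). For the ATP synthase, Atp5e was at 779, 1078 and 1261 CPM in WT mice and 481, 410 and 292 CPM in ob/ob mice (-1.40 ± 0.20, adjusted p = 0.00048). The summed level of the 66 genes was 60002, 50651 and 66261 CPM in WT and 49983, 41842 and 36353 CPM in ob/ob mice, so ob/ob mouse 3 was lowest and the groups did not overlap.

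Genes of the citric acid cycle did not share this shift. Of 17 tested, Dlat, a pyruvate dehydrogenase subunit, alone passed, and it was higher (0.68 ± 0.23, adjusted p = 0.038), a call lost in the fit of the 6 ND libraries alone and without each of WT mice 2 and 3 and each ob/ob mouse; 3 genes rose without WT mouse 1. Of 27 fatty acid oxidation genes, 7 fell and 1 rose, and 12 fell without WT mouse 2 but 4, with none higher, without WT mouse 3 or without ob/ob mouse 3; 2 rose without WT mouse 1. Ehhadh, the bifunctional enzyme of peroxisomal oxidation, fell most among those that passed, from 308, 182 and 212 CPM to 87, 104 and 69.9 CPM (-1.43 ± 0.27, adjusted p = 0.0025). Eci1, an isomerase needed for unsaturated fatty acids, was at 695, 480 and 673 CPM against 445, 360 and 337 CPM (-0.69 ± 0.16, adjusted p = 0.0072).

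Lipid synthesis genes rose in part. Of 27 genes of fatty acid and triglyceride synthesis, 26 were tested, 11 rose and 3 fell, with a median of 0.38, which was 0.63 without WT mouse 1 and 0.21 without WT mouse 2. Scd1, the desaturase that makes oleate and one of the most abundant transcripts here (ENSMUSG00000037071, GRCm38 chromosome 19, 44394451 to 44407709, minus strand), was at 22560, 11947 and 17481 CPM in WT mice and 57490, 72368 and 45572 CPM in ob/ob mice. The lowest ob/ob mouse was above the highest WT mouse by a wide margin (1.75 ± 0.28, adjusted p = 0.00089). Its relative Scd2 was at 58.7, 44.5 and 36.8 CPM against 308, 374 and 328 CPM (2.85 ± 0.22, adjusted p = 6.2e-06). Acly, which supplies cytosolic acetyl-CoA, rose from 1059, 399 and 500 CPM to 2249, 2568 and 1730 CPM (1.74 ± 0.38, adjusted p = 0.0048). Acss2, which makes acetyl-CoA from acetate, rose by 1.28 ± 0.26 (adjusted p = 0.0031). Enzymes that supply NADPH rose as well: G6pdx by 0.96 ± 0.17 (adjusted p = 0.0018), Pgd by 0.93 ± 0.21 (adjusted p = 0.0065) and Me1 by 1.03 ± 0.24 (adjusted p = 0.0072).

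The synthase at the centre of the pathway did not pass. Fasn was at 9490, 3225 and 4503 CPM in WT mice and 8888, 9786 and 7149 CPM in ob/ob mice, where WT mouse 1 lay inside the ob/ob range (0.58 ± 0.37, adjusted p = 0.25). Srebf1, which encodes its main regulator, was at 81.4 to 137 CPM against 92.8 to 163 CPM (0.19 ± 0.21, adjusted p = 0.51). Mogat1, a monoacylglycerol acyltransferase, fell from 15.9, 14.2 and 24 CPM to 3.85, 3.35 and 3.5 CPM (-2.33 ± 0.25, adjusted p = 6.6e-05). Outside the list, Fads3, a member of the fatty acid desaturase family chosen after its values were seen, separated the groups with little spread, at 22.9, 27.6 and 24.3 CPM against 207, 249 and 266 CPM (3.27 ± 0.14, adjusted p = 5.7e-08).

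Cholesterol genes moved both ways. Of 24 tested, 7 rose and 2 fell, and 3 rose without WT mouse 3 and 4 without WT mouse 2 or ob/ob mouse 2 or 3, while 1 fell without WT mouse 3 or ob/ob mouse 2. Lss, which forms lanosterol, rose from 23, 12.3 and 15.4 CPM to 36.7, 39.7 and 41.4 CPM (1.22 ± 0.18, adjusted p = 0.00061). Insig1, which holds back the sterol sensor in the endoplasmic reticulum, fell from 297, 140 and 203 CPM to 88.7, 96.8 and 77.8 CPM (-1.28 ± 0.22, adjusted p = 0.0013). In glucose uptake and insulin signalling, 5 of 20 genes rose and none fell, while 1 fell without WT mouse 1 and 2 without WT mouse 2. Hk2, which traps glucose in muscle and fat, led them at 188, 110 and 143 CPM against 317, 317 and 358 CPM (1.17 ± 0.20, adjusted p = 0.0013).

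Of 17 genes of lipolysis and its adrenergic control, 3 rose and 3 fell. Without WT mouse 1 the number that rose was 6, and without ob/ob mouse 1 it was 1. Hcar1, the lactate receptor that restrains lipolysis, fell from 22.7, 11.2 and 30.6 CPM to 7.34, 6.71 and 7.99 CPM (-1.55 ± 0.29, adjusted p = 0.0022). G0s2, an inhibitor of the first triglyceride lipase, fell from 460, 464 and 533 CPM to 307, 339 and 247 CPM (-0.71 ± 0.14, adjusted p = 0.0029). Adora1, an adenosine receptor that also restrains lipolysis, rose from 57.8, 35 and 51.9 CPM to 84.3, 86.5 and 96.8 CPM (0.89 ± 0.16, adjusted p = 0.0018). Adrb3, the adrenergic receptor of rodent adipocytes, was at 248, 106 and 243 CPM against 129, 100 and 44.6 CPM, with overlap between the groups (-1.13 ± 0.43, adjusted p = 0.06).

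Several abundant transcripts of adipocytes fell, among them Cfd, Retn and Cyp2e1. Of 16 adipocyte markers, 2 rose and 3 fell; 6 fell without WT mouse 2, 5 fell without ob/ob mouse 1, and 5 rose without WT mouse 1. Adipoq (1437, 1245 and 1907 CPM in WT, 1557, 1340 and 1281 CPM in ob/ob mice) did not pass (-0.14 ± 0.16, adjusted p = 0.56). Cfd, adipsin, the protease of the alternative complement pathway that fat secretes (ENSMUSG00000061780, GRCm38 chromosome 10, 79890853 to 79892656, plus strand), was at 2510, 2649 and 3945 CPM in WT mice and 346, 378 and 339 CPM in ob/ob mice. No ob/ob mouse came near the WT range, and the fitted level was 8.56-fold lower (-3.10 ± 0.19, adjusted p = 8.3e-07). Retn, resistin, fell from 161, 128 and 308 CPM to 59.3, 63.3 and 68.1 CPM (-1.65 ± 0.26, adjusted p = 0.00075). Cyp2e1, an ethanol- and fatty-acid-oxidising cytochrome, fell from 683, 614 and 839 CPM to 61.5, 71.3 and 59 CPM (-3.48 ± 0.27, adjusted p = 6.2e-06).

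Other lower genes, chosen after their values were seen, included enzymes and secreted proteins. Pon1, paraoxonase, was at 171, 192 and 251 CPM in WT mice and 28.7, 19.6 and 13.2 CPM in ob/ob mice (-3.32 ± 0.30, adjusted p = 1.9e-05). Tst, the mitochondrial sulfur transferase, was at 116, 91.9 and 116 CPM against 21.4, 15.1 and 12.5 CPM (-2.73 ± 0.20, adjusted p = 3.7e-06). Adtrp, an esterase of fatty acid esters of hydroxy fatty acids, was at 146, 132 and 185 CPM against 22.3, 26.9 and 18.8 CPM (-2.77 ± 0.28, adjusted p = 4.1e-05). In these genes the ranges of the groups were several-fold apart. Rgs2, which damps signalling from G-protein-coupled receptors, was at 355, 276 and 452 CPM against 75.6, 57.6 and 108 CPM (-2.17 ± 0.27, adjusted p = 0.00016). Klf15, a glucocorticoid-induced regulator of amino acid and lipid use, fell from 52.3, 34.4 and 37.4 CPM to 17.1, 16.4 and 16.5 CPM (-1.31 ± 0.18, adjusted p = 0.00034).

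Higher genes chosen in the same way included 2 enzymes of serine synthesis. Phgdh was at 36, 29.3 and 50 CPM in WT mice and 115, 99.2 and 135 CPM in ob/ob mice (1.60 ± 0.18, adjusted p = 9e-05), and Psat1 at 9.22, 11.7 and 12.7 CPM against 44.7, 48.4 and 52.6 CPM (2.12 ± 0.17, adjusted p = 6.2e-06). Bcat1, the cytosolic branched-chain aminotransferase, was at 1.34, 1.74 and 1.72 CPM against 21.3, 23.9 and 31.1 CPM (3.98 ± 0.25, adjusted p = 8.4e-07). All of these were higher in each ob/ob mouse than in each WT mouse. Lbp, which binds bacterial lipopolysaccharide, was at 16.1, 24.3 and 15.4 CPM against 134, 124 and 169 CPM (2.94 ± 0.22, adjusted p = 4.3e-06). Mfge8, a secreted protein that marks dying cells for uptake, was at 110, 72.7 and 90.6 CPM against 350, 397 and 478 CPM (2.17 ± 0.17, adjusted p = 7.4e-06).

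**Figure D3:**
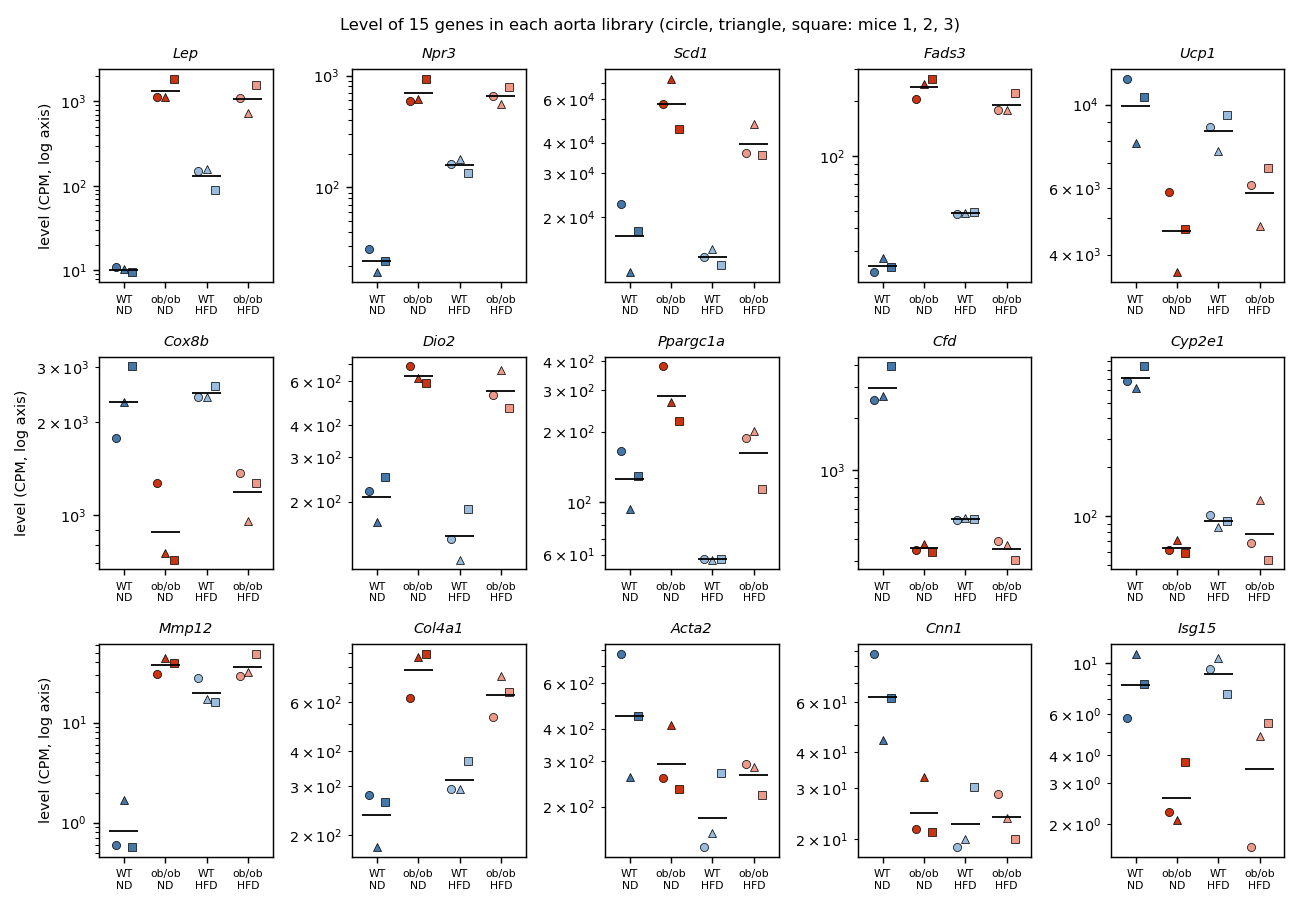
Level of 15 genes (vertical axes, CPM on log scales) in each aorta library by genotype and diet; symbols are mice and black bars geometric means of 3. On ND the ob/ob points of Lep, Npr3, Scd1, Fads3, Dio2, Ppargc1a, Mmp12 and Col4a1 lie above all WT points, those of Ucp1, Cox8b, Cfd, Cyp2e1, Cnn1 and Isg15 lie below them, and those of Acta2 overlap.

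Of 21 collagens, 8 rose and 3 fell. The median was 0.30, and it was 0.51 without WT mouse 2 and 0.12 without ob/ob mouse 3. Col4a1 (ENSMUSG00000031502, GRCm38 chromosome 8, 11198423 to 11312826, minus strand) was at 278, 181 and 262 CPM in WT mice and 618, 870 and 895 CPM in ob/ob mice (1.72 ± 0.21, adjusted p = 0.00012). Its partner chain Col4a2 rose by 1.95 ± 0.22 (adjusted p = 7e-05). Both form the basement membrane that surrounds adipocytes and vessels, and in both the groups lay apart. Col15a1 and Col18a1, which sit at the border of basement membranes, rose by 1.89 ± 0.25 (adjusted p = 0.00024) and 1.23 ± 0.18 (adjusted p = 0.00049). Col5a3, a minor fibrillar chain, was at 23.3, 27.6 and 20.3 CPM against 132, 171 and 242 CPM (2.94 ± 0.24, adjusted p = 7.9e-06). Other fibrillar chains did not pass: Col1a1 was at 159, 255 and 103 CPM against 144, 146 and 254 CPM (0.08 ± 0.31, adjusted p = 0.87), and Col3a1 at 352, 919 and 351 CPM against 307, 372 and 474 CPM (-0.49 ± 0.33, adjusted p = 0.27).

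Col14a1, a fibril-associated chain of the adventitia, fell from 95.2, 224 and 97.6 CPM to 51.4, 40.6 and 56.1 CPM (-1.49 ± 0.37, adjusted p = 0.0094). WT mouse 2 was highest, as for the fibroblast markers, of which 5 of 13 fell and none rose. Pi16, a marker of adventitial progenitors, was at 198, 562 and 201 CPM in WT mice and 62, 42.9 and 79.6 CPM in ob/ob mice (-2.38 ± 0.55, adjusted p = 0.0069). Without WT mouse 2, 4 of the fibroblast markers fell, and without WT mouse 1, 1 rose. The summed fibroblast markers of the other WT mice, 1714 and 1769 CPM, overlapped or bordered the 1236 to 1754 CPM of the ob/ob mice. The part that the share of fibroblasts plays in the matrix values was not tested.

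Among elastic fibre and crosslinking genes, 3 of 20 rose and 6 fell, and 3 fell without WT mouse 2 or without ob/ob mouse 2. Lox, which crosslinks collagen and elastin, was at 33.5, 40.5 and 30.8 CPM in WT mice and 119, 151 and 203 CPM in ob/ob mice (2.17 ± 0.21, adjusted p = 2.3e-05). Its relative Loxl1 fell (60.4, 95.1 and 55.9 against 40.2, 33.2 and 47.7 CPM, -0.80 ± 0.21, adjusted p = 0.012), a call lost without ob/ob mouse 2. Efemp2, which brings Lox to elastin, fell from 14.7, 20.4 and 16.5 CPM to 7.92, 7.82 and 10.7 CPM (-0.96 ± 0.22, adjusted p = 0.0063). Eln, elastin itself, was at 131, 107 and 131 CPM against 89.4, 105 and 112 CPM and did not pass (-0.27 ± 0.14, adjusted p = 0.15).

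Of 21 matrix proteases and inhibitors tested, 9 rose and 3 fell. Without ob/ob mouse 2 or 3, 5 rose, and without WT mouse 2, ob/ob mouse 1 or ob/ob mouse 2, 1 fell. Timp4, the metalloprotease inhibitor of adipocytes and heart, was at 51.6, 38.6 and 61.1 CPM in WT mice and 159, 152 and 220 CPM in ob/ob mice (1.81 ± 0.18, adjusted p = 3.9e-05). Adamts9 and Adamts1, proteases that cut proteoglycans, rose by 1.43 ± 0.25 (adjusted p = 0.0016) and 0.95 ± 0.20 (adjusted p = 0.0043). Mmp9, a gelatinase, was at 4.91, 18.4 and 4.72 CPM against 2.33, 1.52 and 2.45 CPM (-2.14 ± 0.47, adjusted p = 0.0055), with WT mouse 2 highest. Of 15 cartilage, bone and calcification genes, 2 rose: Ank, a pyrophosphate exporter (0.86 ± 0.18, adjusted p = 0.0039), and Spp1, osteopontin (2.79 ± 0.92, adjusted p = 0.035), whose call was lost with the mouse number as a block and without each of WT mice 1 and 3 and ob/ob mice 2 and 3; 1 gene fell without WT mouse 2 or ob/ob mouse 2, and 1 rose without WT mouse 1, WT mouse 3 or ob/ob mouse 2.

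Genes of lipid-laden macrophages rose while general macrophage markers mostly did not pass. Of 18 lipid-associated macrophage genes, 17 were tested, 12 rose and 1 fell, with a median of 0.77, beside 15.9% of all genes that rose. Gpnmb, a glycoprotein of the lysosome (ENSMUSG00000029816, GRCm38 chromosome 6, 49036546 to 49070929, plus strand), was at 6.84, 8.69 and 2.22 CPM in WT mice and 22.9, 43.3 and 48.1 CPM in ob/ob mice (2.69 ± 0.44, adjusted p = 0.00099). Mmp12, the elastase of macrophages, was at 0.595, 1.67 and 0.573 CPM against 30.6, 43.7 and 39 CPM (5.29 ± 0.39, adjusted p = 3.9e-06). Both were higher in every ob/ob mouse than in any WT mouse, a separation favoured by how genes were chosen. Mmp12 was scarcely counted in WT mice. Atp6v0d2, a subunit of the proton pump, was at 0.372, 0.278 and 0.143 CPM against 7.56, 18.6 and 13.9 CPM (5.62 ± 0.49, adjusted p = 1.4e-05). Itgax and Itgad, integrin chains of myeloid cells, rose by 3.01 ± 0.37 (adjusted p = 0.00015) and, from 0.149, 0.0695 and 0 CPM to 4.72, 4.47 and 5.3 CPM, by 5.90 ± 0.59 (adjusted p = 3.4e-05). Trem2, the lipid receptor that drives this state, was at 1.78, 8.9 and 1.72 CPM against 12.1, 20.1 and 22.7 CPM (2.14 ± 0.54, adjusted p = 0.011), and Lgals3, galectin-3, at 13.4, 35.5 and 28.8 CPM against 111, 156 and 158 CPM (2.45 ± 0.35, adjusted p = 0.0004). Cd36, the fatty acid transporter, rose too (0.77 ± 0.16, adjusted p = 0.0039), but it is as much a gene of adipocytes and endothelium, as are others of the list. The member that fell was Cd9, a tetraspanin (-0.61 ± 0.17, adjusted p = 0.019), a call lost without ob/ob mouse 1 or 3.

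Of 17 macrophage markers, 2 rose and none fell, while 9 rose without WT mouse 2 and 1 fell without WT mouse 1 or 3. Cd68, a lysosomal protein of macrophages, was at 9.14, 17.5 and 7.52 CPM in WT mice and 23.9, 32.4 and 43.1 CPM in ob/ob mice (1.54 ± 0.34, adjusted p = 0.0052). Mpeg1, a pore-forming protein of phagocytes, was at 14.4, 51.7 and 15.7 CPM against 58.7, 105 and 106 CPM (1.72 ± 0.44, adjusted p = 0.012). Adgre1, F4/80, did not pass (11.4, 44.2 and 17.9 against 22.7, 35.8 and 46.7 CPM, 0.52 ± 0.50, adjusted p = 0.45), and WT mouse 2 lay among the ob/ob mice. The MHC class II list had no gene past the threshold of 7 tested (1 fell without WT mouse 1).

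Chemokines, cytokines and adhesion molecules rose in part. Of 30 tested, 9 rose and 3 fell, and without WT mouse 2 the numbers were 12 and 0. None fell without ob/ob mouse 3, while 1 fell without ob/ob mouse 2 and 5 without WT mouse 1. Ccl11, eotaxin, was at 25.2, 31.5 and 23.5 CPM in WT mice and 55.9, 36.1 and 50.9 CPM in ob/ob mice (0.83 ± 0.20, adjusted p = 0.0081). Cxcl14 was at 9.51, 6.33 and 8.16 CPM against 24.7, 14.2 and 18.6 CPM (1.26 ± 0.27, adjusted p = 0.0047). Vcam1, which holds leukocytes on endothelium, was at 17.6, 22.9 and 19.5 CPM against 33.6, 45.7 and 28.6 CPM (0.84 ± 0.20, adjusted p = 0.0075). Ccl2, the monocyte attractant, passed (1.28 ± 0.43, adjusted p = 0.036), but its call was lost in the fit of the 6 ND libraries alone and without each of WT mice 1 and 3 and each ob/ob mouse. Saa3, an acute phase protein, was at 9.29, 397 and 29.3 CPM against 5.09, 4.63 and 4.9 CPM, a fall (-4.89 ± 1.40, adjusted p = 0.019) whose size rests on WT mouse 2, and the call was lost without it, without any ob/ob mouse and with the mouse number as a block.

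Interferon-stimulated genes were lower. Of 24 tested, 13 fell and none rose, with a median of -1.10, while 8 fell without WT mouse 2, with a median of -0.56, and 8 without ob/ob mouse 1 or 2. Isg15, a ubiquitin-like protein (ENSMUSG00000035692, GRCm38 chromosome 4, 156199424 to 156200818, minus strand), was at 5.8, 11 and 8.09 CPM in WT mice and 2.25, 2.08 and 3.73 CPM in ob/ob mice (-1.61 ± 0.39, adjusted p = 0.0089). Bst2, tetherin, which holds budding viruses on the cell (ENSMUSG00000046718, GRCm38 chromosome 8, 71534255 to 71537456, minus strand), was at 29.3, 43.9 and 44.3 CPM against 17.8, 19 and 19.7 CPM (-1.06 ± 0.16, adjusted p = 0.00057). In both genes the highest WT mouse lay less than 2-fold above the lowest. In others WT mouse 2 stood out: Oasl2 was at 15.9, 77 and 27.1 CPM against 10.3, 9.34 and 7.52 CPM (-2.15 ± 0.47, adjusted p = 0.005), and Irf7 at 10.2, 26.2 and 16.3 CPM against 6.32, 7.5 and 6.82 CPM (-1.35 ± 0.32, adjusted p = 0.0073). The summed level was 263, 611 and 314 CPM in WT mice and 185, 189 and 206 CPM in ob/ob mice.

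The windows before Isg15 and Bst2 are shown because both genes fell in every alternative tried and their promoters hold the interferon-stimulated response element. RefSeq sequence of GRCm38.p6 is printed 5′ to 3′ in the direction of the gene, for Isg15 chr4:156200819-156201018 and for Bst2 chr8:71537473-71537672, both on the minus strand. The capitals mark its core, the letters GAAA, any 2 bases and GAAA again, sought on both strands; matches overlap, with 3 in the Isg15 window and 2 in that of Bst2. Of 32851 promoter windows of 250 bases, 978 (2.98%) hold the motif, and of the 18 windows of interferon list genes 8 (44.4%) do. Among the list genes with the motif, Bst2, Isg15, Ifit3 and Rsad2 fell, while Ifit1, Oas1a, Stat2 and Trim30a did not pass. A match describes letters, and no match would say nothing of the factor.

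Isg15 promoter: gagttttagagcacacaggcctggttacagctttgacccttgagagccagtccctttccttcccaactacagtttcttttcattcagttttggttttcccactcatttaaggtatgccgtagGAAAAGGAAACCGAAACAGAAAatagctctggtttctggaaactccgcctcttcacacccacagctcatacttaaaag
Bst2 promoter: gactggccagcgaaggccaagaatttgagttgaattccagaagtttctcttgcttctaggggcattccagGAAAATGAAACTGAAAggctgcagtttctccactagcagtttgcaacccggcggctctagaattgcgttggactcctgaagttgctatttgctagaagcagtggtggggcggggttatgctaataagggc

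Of 11 T, B and thymus cell markers tested, 5 fell and none rose. Cd2, an adhesion molecule of T cells, was at 3.42, 3.75 and 5.58 CPM in WT mice and 1.89, 1.04 and 1.22 CPM in ob/ob mice (-1.61 ± 0.41, adjusted p = 0.011). The others that fell are B cell genes. Ms4a1, CD20, was at 6.39, 7.37 and 9.09 CPM in WT mice and 1.53, 1.2 and 2.04 CPM in ob/ob mice (-2.24 ± 0.43, adjusted p = 0.0025). Cd79a, a chain of the B cell receptor complex, was at 5.28, 5.63 and 9.45 CPM against 1.16, 1.2 and 2.04 CPM (-2.18 ± 0.40, adjusted p = 0.002). Immunoglobulin segments were among the lowest fold changes but varied between mice: Igkv14-126 was at 0.966, 79.5 and 12 CPM against 0.145, 0 and 0 CPM (-9.12 ± 1.96, adjusted p = 0.0047), and the light chain constant gene Iglc2 at 1.78, 21.1 and 6.87 CPM against 0.509, 0.239 and 0.583 CPM (-4.42 ± 0.92, adjusted p = 0.004). Segments of these families are near copies of each other, so reads may be split or lost between them.

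Contractile genes of the vessel wall were lower in part, and their level depended on the mouse. Of 20 smooth muscle markers, 8 fell and 3 rose, with a median of -0.81 (-0.50 without WT mouse 1); 12 fell without WT mouse 2 or ob/ob mouse 2, 5 fell without WT mouse 1 or without ob/ob mouse 3, and 5 rose without WT mouse 1. Acta2 was at 778, 259 and 446 CPM in WT mice and 257, 412 and 234 CPM in ob/ob mice, and Myh11, smooth muscle myosin, at 317, 128 and 192 CPM against 92.1, 207 and 83.2 CPM. The groups overlapped in both and neither passed (-0.72 ± 0.36, adjusted p = 0.14, and -0.74 ± 0.39, adjusted p = 0.16). Cnn1, calponin (ENSMUSG00000001349, GRCm38 chromosome 9, 22099216 to 22109630, plus strand), was at 88.3, 44.3 and 61.7 CPM against 21.7, 32.8 and 21.2 CPM (-1.36 ± 0.27, adjusted p = 0.0028). Ramp1, which makes the receptor of the vasodilator CGRP, was at 12.2, 8.62 and 9.81 CPM against 3.2, 4.31 and 2.91 CPM (-1.56 ± 0.25, adjusted p = 0.00082). Des, desmin, fell by 1.05 ± 0.17 on the log2 scale (adjusted p = 0.00094). Tagln fell (-1.35 ± 0.25, adjusted p = 0.0022), but 67.9% of its exon bases lie opposite another gene and the strand was not used in counting. Synpo2, an actin-binding protein that other cells also make, rose by 1.78 ± 0.18 (adjusted p = 3.4e-05). The summed smooth muscle markers were 2559, 1322 and 1684 CPM in WT mice and 1323, 1835 and 1350 CPM in ob/ob mice, and the part that the share of vessel wall in the sample plays was not tested.

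Among 28 vascular tone genes tested, 9 fell and 1 rose; 5 fell without WT mouse 2, 3 without ob/ob mouse 1 and 4 without ob/ob mouse 3, and 2 rose without WT mouse 2 or ob/ob mouse 1. Ptgis, prostacyclin synthase, which makes a dilator that also holds back platelets, was at 61.2, 93.5 and 54.9 CPM in WT mice and 35.5, 40.4 and 28.5 CPM in ob/ob mice (-1.01 ± 0.19, adjusted p = 0.0026). Ptgs1, the cyclooxygenase upstream of it, was at 18.1, 60.6 and 29.2 CPM against 13.8, 13.9 and 13.5 CPM (-1.39 ± 0.35, adjusted p = 0.011). Npr1, the receptor by which natriuretic peptides relax vessels, was at 62.2, 82.3 and 72.1 CPM against 44.3, 50.9 and 38.9 CPM (-0.69 ± 0.15, adjusted p = 0.0057). Each of these 3 was lower in every ob/ob mouse than in any WT mouse. Ece1, which cuts endothelin to its active form, rose (55.1, 50.9 and 60 against 82, 109 and 96.9 CPM, 0.79 ± 0.12, adjusted p = 0.00077). The difference did not pass for Edn1, endothelin (0.23 ± 0.36, adjusted p = 0.66), Ace (-0.06 ± 0.18, adjusted p = 0.83) or Nos3, the endothelial nitric oxide synthase (26.4, 20.1 and 26.4 against 20.3, 31.7 and 20.1 CPM, -0.02 ± 0.21, adjusted p = 0.95), and 32.3% of the exon bases of Nos3 are shared with a gene on the other strand. Of 18 endothelial markers, Cldn5, a tight junction protein, rose (1.15 ± 0.30, adjusted p = 0.013, lost without ob/ob mouse 2; 2 markers rose without ob/ob mouse 3) and Emcn, endomucin of veins and capillaries, fell from 23.7, 25.6 and 31 CPM to 13.2, 11.5 and 8.51 CPM (-1.28 ± 0.18, adjusted p = 0.00045).

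Of 18 clock genes, 7 rose and 1 fell, with a median of 0.59 (0.39 without ob/ob mouse 1), beside 15.9% of all genes that rose. Cry2, a repressor of the clock, was at 16.9, 11.9 and 17.1 CPM in WT mice and 41.3, 32.6 and 43.7 CPM in ob/ob mice (1.36 ± 0.18, adjusted p = 0.00028). The repressors Bhlhe41 and Bhlhe40 rose by 1.81 ± 0.21 (adjusted p = 9.5e-05) and 0.87 ± 0.12 (adjusted p = 0.00032). Nfil3, which opposes the output factors of the clock, fell from 64.1, 48.5 and 50.5 CPM to 25.6, 29.5 and 27.3 CPM (-0.99 ± 0.16, adjusted p = 0.0011). The core activator Arntl (0.11 ± 0.22, adjusted p = 0.75) did not pass, and the labels give no time of day.

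Heat shock genes that passed were mostly lower, and unfolded protein genes moved both ways. Of 20 genes listed as cytosolic heat shock and cold-inducible, with the mitochondrial Hspe1 and Hspd1 among them, 7 fell and 2 rose. The number that fell was 4 without WT mouse 1, WT mouse 3 or ob/ob mouse 2, and 3 without ob/ob mouse 3. Hspe1, the small chaperonin of mitochondria, was at 278, 253 and 300 CPM in WT mice and 163, 109 and 101 CPM in ob/ob mice (-1.16 ± 0.18, adjusted p = 0.0007). Hspa1a, a stress-induced HSP70 with a near-identical neighbour in Hspa1b, fell (-1.72 ± 0.31, adjusted p = 0.0018). Rbm3, which rises with cold, was at 67.4, 82 and 78.3 CPM against 115, 130 and 123 CPM (0.69 ± 0.11, adjusted p = 0.00087). Among 20 genes of the unfolded protein response or the integrated stress response, 6 fell and 3 rose. Without ob/ob mouse 3, 4 fell and 4 rose. Creld2, a target of endoplasmic reticulum stress, fell from 11.9, 14.7 and 16.8 CPM to 6.39, 6.23 and 5.77 CPM (-1.24 ± 0.20, adjusted p = 0.00083). Atf3, induced by several kinds of stress, rose from 17.9, 19.5 and 19 CPM to 106, 116 and 56 CPM (2.30 ± 0.35, adjusted p = 0.00065).

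Of 16 glucocorticoid targets tested, 3 rose and 4 fell. Errfi1, a feedback inhibitor of the EGF receptor, and Nfkbia, the inhibitor of NF-kB, fell by 1.47 ± 0.24 (adjusted p = 0.001) and by 1.30 ± 0.17 (adjusted p = 0.00021) on the log2 scale. Fkbp5, a glucocorticoid receptor chaperone, rose (0.83 ± 0.27, adjusted p = 0.036), a call lost in the fit of the 6 ND libraries alone and without each of WT mice 1 and 3 and each ob/ob mouse. Of 16 immediate early genes, 3 rose and 3 fell, and 1 fell without WT mouse 2, ob/ob mouse 1 or ob/ob mouse 2. Nr4a2, an orphan nuclear receptor, rose (6.76, 2.99 and 13.3 against 31, 20.9 and 21.9 CPM, 1.68 ± 0.38, adjusted p = 0.0066), and Klf2, a flow-responsive factor of endothelium, fell (42.8, 113 and 79.8 against 22.5, 38.2 and 22.3 CPM, -1.51 ± 0.33, adjusted p = 0.0057). Cell division genes gave 1 higher and 1 lower of 19 (0 to 2 higher and 0 to 1 lower with any one library left out), and complement genes, Cfd included, 1 higher and 2 lower of 14; for complement, 3 rose without WT mouse 2, 7 fell without WT mouse 1 and 4 fell without WT mouse 3.

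**Figure D4:**
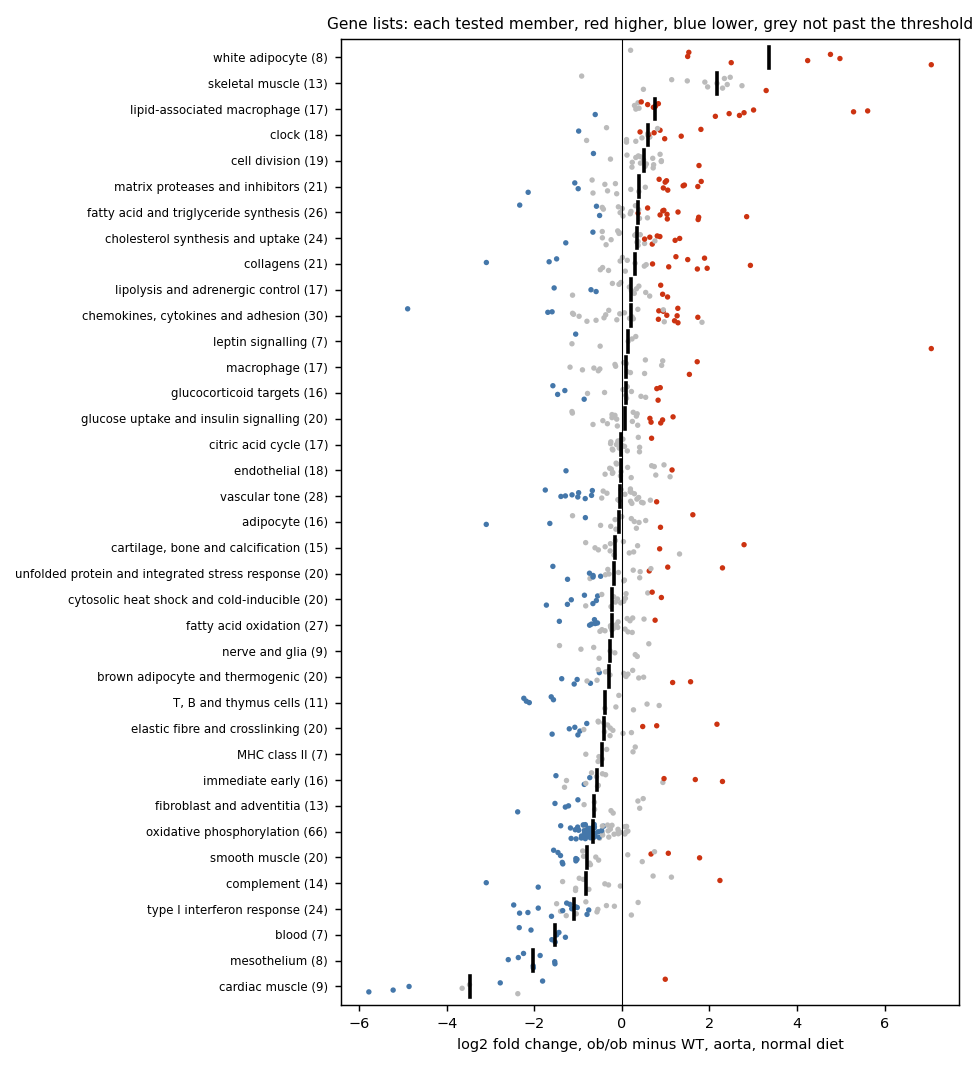
Log2 fold change of each tested member (horizontal axis, ob/ob minus WT, ND) of the lists with at least 5 tested members, ordered by median (black ticks); red is higher, blue lower and grey not past the threshold, with the number tested after each name. White adipocyte members reach from 0.20 to 7.07, oxidative phosphorylation lies mostly below 0, and blood, mesothelium and cardiac muscle have the 3 lowest medians.

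Markers of tissues that border the aorta differed between the groups. Of 9 cardiac muscle markers tested, 5 fell and 1 rose, with a median of -3.48; 3 fell without WT mouse 2 and 2 without ob/ob mouse 1 or 3, and none rose without ob/ob mouse 3. Without ob/ob mouse 2 the median was -7.12. Their summed level was 254, 905 and 334 CPM in WT mice and 35, 120 and 34 CPM in ob/ob mice. Myl7, the atrial light chain, was at 74.8, 207 and 69.4 CPM against 0.291, 6.31 and 0.233 CPM (-5.78 ± 1.73, adjusted p = 0.023, lost in DESeq2 and without ob/ob mouse 1 or 3). All 8 mesothelium markers fell, with a median of -2.02, and 5 fell without WT mouse 2 and 3 without ob/ob mouse 2 or 3. Krt19, a keratin of mesothelial cells, was at 18.9, 70.4 and 38.7 CPM against 10.7, 5.03 and 5.48 CPM (-2.60 ± 0.51, adjusted p = 0.003). All 7 blood markers fell, with a median of -1.52, but none fell without ob/ob mouse 3, 2 without ob/ob mouse 2 and 3 without WT mouse 3. Haemoglobin and red cell genes summed to 8919, 11768 and 13816 CPM against 6354, 3348 and 3333 CPM, and the near-identical globin copies cannot be told apart gene by gene.

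Skeletal muscle markers had 1 gene higher of 13, Acta1, the skeletal actin, at 2.68, 3.89 and 2.51 CPM against 33.9, 43.7 and 12.2 CPM (3.30 ± 0.67, adjusted p = 0.0036). Without ob/ob mouse 3, 4 rose, and the markers summed to 182, 186 and 27 CPM in ob/ob mice and 41, 62 and 42 CPM in WT mice. The part of neighbouring tissue in the genes described above was not tested.

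In the ob/ob minus WT comparison of the HFD aorta, 1231 genes (8.34%) were higher and 1158 (7.84%) lower. White adipocyte genes gave 5 higher and none lower there (median 1.60), lipid-associated macrophage genes 7 and none (0.74), and collagens 8 and none (0.52). Oxidative phosphorylation had 26 lower and none higher (-0.55), fatty acid oxidation 16 lower and 1 higher (-0.61) and the interferon list 4 lower and none higher (-0.41). Cardiac muscle, mesothelium and blood markers had medians of 0.49, 0.34 and 1.14, where those on ND were negative. Smooth muscle markers gave 3 higher and 1 lower with a median of 0.18. The lipolysis list gave none higher and 2 lower (-0.15, against 0.22 on ND), adipocyte markers 2 and 2 (0.04, against -0.07), and skeletal muscle markers none either way (1.98, against 2.17). Counts on the separate diets do not test whether they differ.

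The test of that difference, the genotype effect on HFD minus that on ND, passed for 63 of 14761 genes (0.427%), 25 above 0 and 38 below, and 59 of them also differed between the genotypes on ND. At an unadjusted p under 0.05 there were 2055 genes, DESeq2 gave 318, and the number ran from 24 without WT mouse 1 on HFD to 326 without WT mouse 1 on ND. With one of the following left out it was 25 to 40: mouse 2 or 3 of the HFD WT group, mouse 3 of the HFD ob/ob group, mouse 3 of the ND WT group, and mouse 1 or 3 of the ND ob/ob group. In Lep, Npr3, Mmp12, Cfd and Cyp2e1 the WT level on HFD lay nearer to that of ob/ob mice than the WT level on ND did. Lep was at 152, 160 and 90.7 CPM (WT) and 1087, 730 and 1551 CPM (ob/ob) on HFD, and the genotype effect was smaller there (difference -4.01 ± 0.42, adjusted p = 0.0011). Npr3 was at 163, 179 and 135 CPM against 651, 557 and 797 CPM on HFD (difference -2.91 ± 0.31, adjusted p = 0.0011). For Mmp12 the WT mice on HFD were at 28, 17 and 15.9 CPM and the ob/ob mice at 29.3, 31.8 and 48.8 CPM, so the groups lay close together without overlap (-4.44 ± 0.48, adjusted p = 0.0011).

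Lower genes gave the mirror image. Cfd was at 517, 528 and 525 CPM in WT mice on HFD and 391, 369 and 305 CPM in ob/ob mice (difference 2.54 ± 0.25, adjusted p = 0.0011). Cyp2e1 was at 102, 85.8 and 92.8 CPM against 68.2, 126 and 54.1 CPM, where the groups overlapped (3.30 ± 0.36, adjusted p = 0.0011). For Retn the order of the groups turned on HFD, with 36.3, 47.5 and 36.7 CPM in WT and 78.3, 69.4 and 86.9 CPM in ob/ob mice (2.61 ± 0.36, adjusted p = 0.0084). Ptgis turned as well, at 26, 30 and 22.7 CPM against 40.6, 40 and 45 CPM (1.68 ± 0.27, adjusted p = 0.018), a call lost without mouse 1 or 3 of the HFD WT group, mouse 3 of the HFD ob/ob group, or mouse 1 or 3 of the ND ob/ob group. Rspo4 was higher in WT mice on HFD, at 7.87, 8.31 and 9.4 CPM, than in ob/ob mice on either diet, at 3.11, 5.58 and 4.52 CPM on HFD (-6.13 ± 0.91, adjusted p = 0.012). The difference for Ucp1 did not pass (0.55 ± 0.33, adjusted p = 0.48), with 8712, 7523 and 9415 CPM in WT and 6125, 4755 and 6772 CPM in ob/ob mice on HFD.

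**Figure D5:**
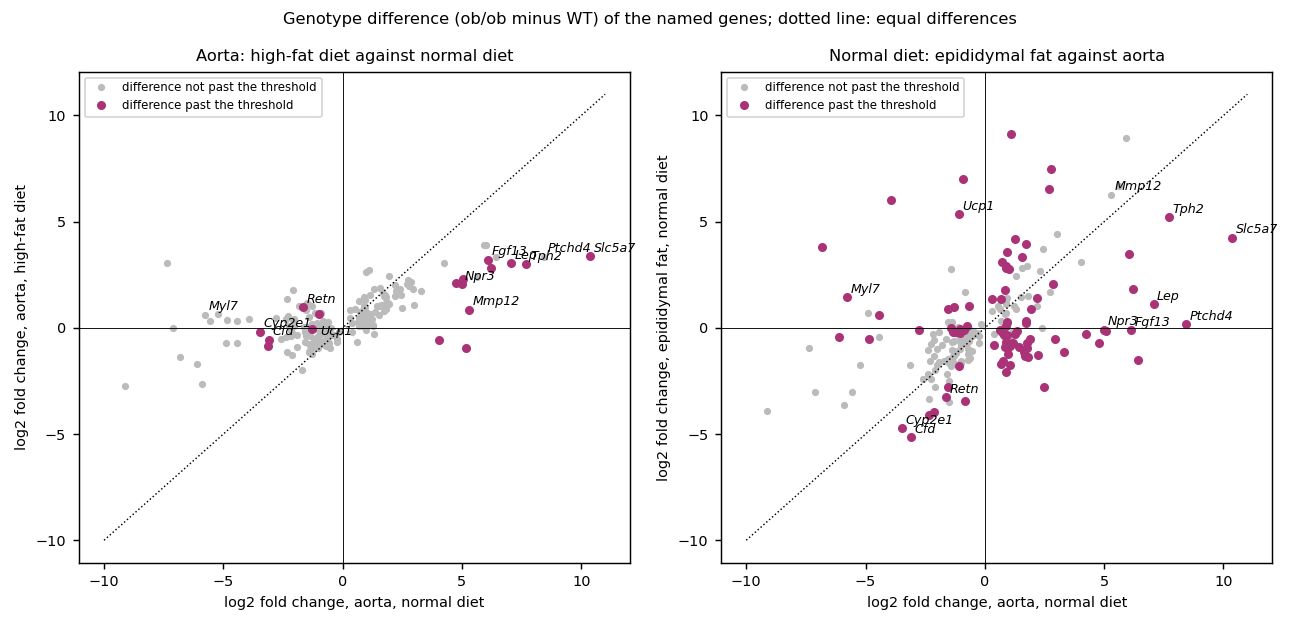
Log2 fold change (ob/ob minus WT) of the named genes in the ND aorta (horizontal axes) against that in the HFD aorta (left, vertical axis) and in the epididymal fat of the same ND mice (right, vertical axis); purple points differ past the threshold and the dotted line marks equal effects. Lep and Npr3 lie below the line in both panels and Cfd above it on the left and below it on the right; values of genes at 0 in a group depend on the prior count.

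Genotype effects differed between the aorta and the epididymal fat of the same mice for many genes. The difference of the genotype effects, aorta minus epididymal fat with the mouse as a block, passed for 3211 of 15810 genes (20.3%), 1708 above 0 and 1503 below. Both this comparison and that with HFD use the ND aorta libraries, so they are not independent. Without WT mouse 1 the count was 1841, and without ob/ob mouse 1, 2 or 3 it was 1513, 1650 and 1875. In the scaling of that fit, Lep was at 1759, 1739 and 897 CPM in the fat of WT mice and 2298, 3192 and 4069 CPM in that of ob/ob mice, while the aorta went from 12.3 to 14.2 CPM to 1424 to 2314 CPM (5.87 ± 0.34, adjusted p = 0.0002). Npr3 was at 1230, 1316 and 923 CPM in WT and 846, 1037 and 1394 CPM in ob/ob fat (5.05 ± 0.31, adjusted p = 0.0002). Fads3 was at 684, 696 and 561 CPM against 387, 488 and 663 CPM in fat (3.61 ± 0.22, adjusted p = 0.0002). In that scaling Npr3 was at 748, 767 and 1168 CPM and Fads3 at 262, 311 and 333 CPM in the ob/ob aorta, the former overlapping the levels in fat and the latter below them.

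Other genes of adipocytes were lower in the epididymal fat of every ob/ob mouse. Nnat was at 1704, 1740 and 1370 CPM in WT and 135, 260 and 292 CPM in ob/ob epididymal fat (5.44 ± 0.49, adjusted p = 0.0006). Thbs1, thrombospondin, rose in the aorta (34.4, 97.1 and 56.2 against 245, 419 and 364 CPM in the scaling of this fit) and was at 793, 1089 and 595 CPM against 211, 278 and 213 CPM in epididymal fat (4.32 ± 0.34, adjusted p = 0.00038). Adipoq was at 4862, 5890 and 4828 CPM against 743, 1154 and 882 CPM in fat (2.37 ± 0.37, adjusted p = 0.0043). Adrb3 was nearly lost in ob/ob fat, at 569, 411 and 457 CPM against 3.15, 5.06 and 2.33 CPM (5.97 ± 0.40, adjusted p = 0.00026).

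The macrophage gene Gpnmb and cell division genes had larger genotype effects in epididymal fat. Gpnmb was at 27.7, 31.6 and 20 CPM in WT and 4167, 1666 and 1645 CPM in ob/ob fat (difference -3.64 ± 0.67, adjusted p = 0.0084). Of 21 cell division genes tested in that fit, 17 differed, beside 20.3% of all genes tested there. Mki67, the proliferation marker, was at 8.94, 5.67 and 9.07 CPM against 80.6, 54.5 and 67.7 CPM in fat and at 4.34, 4.17 and 5.19 CPM against 5.15, 7.78 and 9.21 CPM in the aorta, both in the scaling of this fit (-2.43 ± 0.34, adjusted p = 0.0029). Of 66 oxidative phosphorylation genes 1 passed, and a gene that did not pass is not thereby shown to have equal effects. Cfd was lower in both tissues and further so in fat, at 5118, 5565 and 3907 CPM against 114, 200 and 95.8 CPM (2.13 ± 0.41, adjusted p = 0.01). Mfge8 was at 460, 502 and 380 CPM against 1971, 2077 and 2687 CPM in fat, and its effects did not differ past the threshold (-0.17 ± 0.28, adjusted p = 0.71). Ucp1 had 0 counts in the fat of all WT mice and 0.167 to 0.673 CPM in that of ob/ob mice.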

How the data were processed

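RNA from TRIzol extracts was made into libraries with a TruSeq RNA kit and sequenced on a NextSeq, per the labels' protocols. The values are raw counts per gene in 1 deposited table of 49671 genes, made by the authors with Trimmomatic 0.36, HISAT2 2.0.5 and featureCounts 1.5.0-p2, per the submitters' processing notes; the file header gives featureCounts 1.5.1. Its command in the header sets no strand and no multi-mapping option, so antisense neighbours and near-identical copies are uncertain. Gene coordinates are of GRCm38, and promoter windows are RefSeq sequence of GRCm38.p6.

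From these counts, genes were filtered with filterByExpr (minimum count 10, minimum total 15), scaled by TMM and tested with edgeR 4.0.16 (R 4.3.3; quasi-likelihood test, Benjamini-Hochberg adjustment, threshold 0.05). The genotype and diet comparisons share 1 fit of the 12 aorta libraries. The aorta minus epididymal fat comparison uses the 12 ND libraries of both tissues with the mouse as a block. It takes libraries of the same group and number to come from the same mouse. Standard errors are the log2 value divided by the square root of F. The step was tested on simulated counts first. Marker sums add the CPM of a list's members. Nothing in the labels says more of the replicates than that they are numbered mice. In the aorta fit p-values therefore weigh a difference against the spread between these mice. For the aorta minus epididymal fat comparison, it is the spread that remains after the mouse block.

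The groups, the 38 lists (664 members tested) and the rules were chosen with earlier results of these data known. The rule for named genes took the 12 highest and 12 lowest log2 fold changes among called genes that carry a regular symbol, average 1 log2 CPM or more and separate the groups fully. It added Lep, Lepr, from each list the 5 members of smallest p, and the 4 highest and 4 lowest of each difference test. Not all of these are printed, and every other gene named was chosen after its values were seen. The comparisons were repeated with each library left out, with the mouse number as a block, with the 6 ND libraries alone, without the filter, in DESeq2 1.42.0, and in edgeR with DESeq2's size factors. Blood chemistry, body composition and weights were not used here. Results of a few list members are not reported here.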

Additional observations from a re-analysis of the deposited data

Results flagged for a closer look

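For 8 genes the genotype effect differed between the diets and is given as the log2 effect on HFD minus that on ND (edgeR, adjusted p over all genes). It was 2.54 for Cfd (adjusted p = 0.0011), 3.30 for Cyp2e1 (adjusted p = 0.0011) and 2.61 for Retn (adjusted p = 0.0084). It was 2.28 for Irf4, a transcription factor of lymphocytes, macrophages and adipocytes (adjusted p = 0.038), at 19.8, 18.4 and 37.8 CPM (WT) and 2.69, 1.92 and 3.85 CPM (ob/ob) on ND. On the negative side it was -4.70 for Tph2 (adjusted p = 0.0084), -6.13 for Rspo4 (adjusted p = 0.012), -4.62 for Car12, a carbonic anhydrase (adjusted p = 0.014), and -6.99 for Slc5a7 (adjusted p = 0.038). The values of Slc5a7 and Rspo4 depend on the prior count, since the ND WT group held 0 and 1 counts. The calls of Irf4 and Slc5a7 were each lost with any of 8 single libraries left out, and that of Car12 without ob/ob mouse 1 on ND.

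For 8 genes the effect differed between tissues and is given as the log2 effect in the aorta minus that in epididymal fat. It was 6.22 for Fgf13 (adjusted p = 0.00017), 8.58 for Ptchd4 (adjusted p = 0.0013), 8.31 for Klf14 (adjusted p = 0.0031) and 6.48 for Slc5a7 (adjusted p = 0.0021); the last 3 had 0 counts in the WT aorta and their values depend on the prior count. On the negative side stood Cox6a2 at -9.92 (adjusted p = 0.00069), Ppp1r3a at -7.74 (adjusted p = 0.0023) and Eef1a2 at -7.68 (adjusted p = 0.0011), all genes of striated muscle. In the epididymal fat of WT mice they were at 0 to 0.2 CPM, and in that of ob/ob mice at 2.5 to 7.65, 13.7 to 46.9 and 4.59 to 17.1 CPM in that order. The immunoglobulin segment Ighv6-3 stood at -9.39 (adjusted p = 0.031), a call lost without WT mouse 1 or any ob/ob mouse.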

How the results depend on the processing

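The count of 4685 genes on ND was 3205 in a fit of the 6 ND libraries alone, 4674 with DESeq2 size factors, 4865 in DESeq2 and 4814 without the filter. With the mouse number as a replicate block it was 4761. Same-numbered WT and ob/ob aorta mice had correlations of their deviations from the group mean of 0.10, 0.02 and -0.21. The highest between other numbers was 0.27. Deviations of 3 mice from their own mean are tied to each other, so these values cannot show whether the numbers pair the mice. With 1 library left out the count ran from 2982 to 4774, that of higher genes from 1556 to 2405 and that of lower genes from 1426 to 2369, and 61.6% to 85.8% of the calls were kept. The difference between the diets gave 63 genes with the replicate block, 318 in DESeq2 and 760 without the filter, which tests 28246 genes, and 24 to 326 with 1 library left out. Of the 63 genes called in the main fit, 49 were kept with the block. With 1 library left out, 36.5% to 100% of these calls were kept. The difference from epididymal fat gave 3211 genes, 3884 with no replicate block, 2974 in DESeq2, and 1513 to 3027 with 1 library left out. None of the calls counted in these comparisons turned its direction. Depth limits genes under about 1 CPM, and 3 mice per group limit the rest. A single count was 0.0583 to 0.0798 CPM in the 6 ND aorta libraries, so single counts decide levels near that.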
